A study of Mus musculus with 6 samples.

Results

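The genes described here are 31 regulators of haematopoietic stem and progenitor cells: 16 transcription factors, 7 receptors or surface proteins, 4 genes tied to quiescence, 2 regulators that bind chromatin or RNA, 1 ligand and 1 signalling protein. They were chosen by symbol, with Hox genes left out, and all 31 were found among the 24421 genes of the deposited table. Bone marrow cells from the femurs of Dek -/- C57BL/6 mice were passed over lineage depletion columns, which hold back mature cells, and were then treated with DEK (3 libraries) or with vehicle (3 libraries), numbered 1 to 3 in each group. Every library thus came from Dek knockout marrow, and no library from marrow with an intact Dek gene was analysed here. DEK is a nuclear protein of chromatin that can also be secreted, and the series asks how transcripts of lineage-depleted marrow respond to DEK given from outside. The age and sex of the mice, the dose and duration of the treatment, and whether libraries stem from separate animals are not given in the sources used here, so the p-values measure only the spread between these libraries.

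Haematopoietic stem cells sit at the top of blood formation, divide rarely and give rise to progenitors that commit to the myeloid, erythroid, megakaryocytic and lymphoid lines. Their identity is held by a network of transcription factors that bind regulatory DNA together, among them Tal1, Lyl1, Lmo2, Gata2, Runx1, Erg and Fli1, while receptors such as Kit and Flt3 read growth factors made by the niche. Restraint of the cell cycle by cyclin-dependent kinase inhibitors and by Foxo3 keeps stem cells quiescent.

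Reads counted in genes ran from 42496076 to 49128378 in the DEK libraries and from 34875736 to 48867857 in the vehicle libraries. Counts of Dek itself were 781, 869 and 712 in DEK replicates 1, 2 and 3 and 863, 672 and 733 in vehicle replicates 1, 2 and 3, and since the deleted exons are not named in the sources used here, sums over the whole gene do not check the genotype. Both libraries numbered 3 stood apart, with neutrophil markers taking 6.15% of counts in DEK replicate 3 and 7.09% in vehicle replicate 3, against 1.52 to 1.80% in the other 4 libraries. Vehicle replicate 1 had 4.89% of its counts on the ribosomal RNA precursor Rn45s. Each of 8 defining stem and progenitor genes (Kit, Cd34, Ly6a, Procr, Slamf1, Fgd5, Hlf and Flt3), all part of the set described, had reads in every library. At this depth the presence of reads is only a weak check of the labelled cell type. Fgd5, which in mice marks long-term stem cells, was near the floor with 16 to 34 reads in the DEK libraries and 20 to 42 in the vehicle libraries. The summed share of the 8 genes was 0.0468 to 0.0815% in the DEK libraries and 0.0364 to 0.0802% in the vehicle libraries. These are bulk libraries, in which fewer cells of a type and less RNA per cell cannot be told apart.

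None of the 31 genes differed between DEK and vehicle beyond the spread between libraries when the replicate numbers were not used. All 31 passed the filter on low counts and were tested with edgeR's quasi-likelihood test, in which 0 of 13803 genes (0%) and 0 of the 31 had an adjusted p under 0.05. In simulated data this test recovered only 8.25% of true log2 changes of size 1, so a lack of calls does not exclude such changes. At an unadjusted p under 0.05 there was 1 of the 31, Procr, where the background was 2.61% of all genes tested (1.49% higher and 1.12% lower). Fold changes are DEK over vehicle on a log2 scale, ± SE, unless a scale is named. Of the 31, 22 lay below 0 (71.0%, where 49.5% of all genes tested did), and the median was -0.12 against 0.00 over all genes. That median depended on single libraries: it was -0.24 without DEK replicate 1, -0.22 without vehicle replicate 3, -0.01 without DEK replicate 3 and -0.02 without vehicle replicate 1.

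Libraries of equal replicate number deviated together from their group means, so differences were also taken within these 3 pairs, with the replicate number as a block. For numbers 1 and 2 the correlations of these deviations were 0.55 and 0.56. Crossed matches gave 0.52 (DEK 1 with vehicle 2) and 0.41 (DEK 2 with vehicle 1). The data thus hardly tell numbers 1 and 2 apart, and pairs 1 and 2 rest on the labels' numbers. In simulated data, with 100 genes changed at each size, the fit within pairs made 32 false calls, against 6 without the block. A single call within pairs is therefore uncertain. Within pairs 0 of the 31 passed edgeR's threshold, where the background was 1.28% of all genes (0.869% higher and 0.413% lower). The gene nearest to it was Hlf (adjusted p = 0.05001, edgeR, just above the threshold of 0.05), and 5 of the 31 had an unadjusted p under 0.05, all of them lower with DEK, beside a background of 5.42% of genes lower and 6.03% higher at that level. In all 3 pairs 11 of the 31 were lower (35.5%, against 17.9% of all genes) and 4 were higher (12.9%, against 16.3%). Medians of the 31 were -0.06, -0.16 and -0.02 in pairs 1, 2 and 3. Because the libraries numbered 3 stood apart, the fit within pairs was repeated on pairs 1 and 2 alone. It called 4 of the 31 (12.9%), where the background was 4.64% (2.37% higher and 2.27% lower). Of these 4, Hlf, Bmi1 and Txnip were lower with DEK and Procr was higher. Leaving out pair 1 or pair 2 instead called 0 of the 31, in fits that called 181 genes in all without pair 1 and 0 without pair 2.

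The promoters of these 4 genes are shown because they are the ones called in pairs 1 and 2. They are RefSeq sequences on GRCm38.p6, from 250 bases before to 50 bases after the start site, 5′ to 3′ along the gene, and each start site equals the outer exon bound of the gene in the count table. They lie at chr11:90390868-90391167, minus strand, for Hlf, at chr2:18676768-18677067, plus strand, for Bmi1, at chr3:96557707-96558006, plus strand, for Txnip, and at chr2:155750967-155751266, plus strand, for Procr. Capitals mark matches, on either strand, to the motifs named after the sequences.
Hlf: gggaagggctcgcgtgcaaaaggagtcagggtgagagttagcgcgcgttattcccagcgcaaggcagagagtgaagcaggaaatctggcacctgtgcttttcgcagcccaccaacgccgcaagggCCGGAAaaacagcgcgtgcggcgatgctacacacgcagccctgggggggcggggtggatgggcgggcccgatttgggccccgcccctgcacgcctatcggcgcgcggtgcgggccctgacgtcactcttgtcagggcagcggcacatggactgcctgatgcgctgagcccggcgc
Bmi1: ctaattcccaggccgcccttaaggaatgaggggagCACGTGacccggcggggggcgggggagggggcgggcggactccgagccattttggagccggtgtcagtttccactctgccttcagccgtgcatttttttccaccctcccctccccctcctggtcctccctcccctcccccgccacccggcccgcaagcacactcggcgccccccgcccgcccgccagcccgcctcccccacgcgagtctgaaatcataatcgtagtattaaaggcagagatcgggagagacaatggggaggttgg
Txnip: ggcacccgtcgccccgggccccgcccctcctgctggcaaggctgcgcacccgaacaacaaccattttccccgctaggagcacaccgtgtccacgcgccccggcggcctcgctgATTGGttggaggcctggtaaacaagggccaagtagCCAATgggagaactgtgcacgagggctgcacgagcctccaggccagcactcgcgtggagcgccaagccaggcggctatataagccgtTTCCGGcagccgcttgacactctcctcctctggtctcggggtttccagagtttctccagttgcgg
Procr: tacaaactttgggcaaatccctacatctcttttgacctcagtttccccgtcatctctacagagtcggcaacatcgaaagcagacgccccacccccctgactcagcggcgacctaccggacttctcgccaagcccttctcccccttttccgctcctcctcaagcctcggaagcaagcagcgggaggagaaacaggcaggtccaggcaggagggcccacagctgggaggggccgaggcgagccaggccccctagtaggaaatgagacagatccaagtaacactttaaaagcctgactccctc

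The letters searched, on both strands, are given with each motif, and a promoter was matched by symbol for 26 of the 31 genes. No promoter was matched for Lmo2, Fli1, Ly6a, Angpt1 and Cdkn1c, so these genes were not searched. An ETS core (CCGGAA) started 125 bases before the start site of Hlf and 15 bases before that of Txnip. It was found in 3 of the 26 matched genes (11.5%) and in 14.9% of all promoters. The Bmi1 promoter held 1 E-box (CACGTG), starting 215 bases before the start site, and this motif was in 4 of the 26 matched genes (15.4%) and in 7.15% of all promoters. In Txnip there were CCAAT boxes, searched by those letters, starting 137 and 102 bases before the start site on opposite strands, and the box was in 8 of the 26 matched genes (30.8%) and in 37.4% of all promoters. The Procr promoter held no match to any motif searched.

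Of the motifs with no match in these 4 promoters, the GATA site (AGATAA), the sequence read by Gata2 and its relatives, was in 2 of the 26 matched genes (7.69%) and in 11.2% of all promoters, the genes being Tal1 and Tek. The RUNX site (TGTGGT), read by Runx1, was in 1 of the 26 matched genes (3.85%) and in 16.8% of all promoters, the gene being Runx1 itself. The TATA box, searched as TATAAA, was in 0 of the 26 and in 13.6% of all promoters. Variants of these letters were not searched, and the Txnip promoter holds the similar letters tatataag. The GAS site of STAT factors (TTCNNNGAA) was in 2 of the 26 matched genes (7.69%), Etv6 and Gfi1b, and in 8.30% of all promoters. An interferon response element was searched as the letters GAAA repeated after a gap of any 2 bases. It was in 2 of the 26 matched genes (7.69%), Mecom and Etv6, and in 3.44% of all promoters. Ly6a had no matched promoter and was not searched for it. The NF-kB consensus was in 1 of the 26 matched genes (3.85%) and in 4.51% of all promoters. The matches in the 4 promoters shown did not overlap each other, and a match describes letters, not binding.

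Compared per length of exon, as TPM (transcript abundance scaled for exon length and library total), the levels of the 31 genes ran from 0.242 TPM for Fgd5 to 332 TPM for Txnip as means over all 6 libraries. Txnip, which encodes a thioredoxin-binding protein that curbs glucose uptake, stood at 284 ± 53.2 TPM with DEK and 379.7 ± 19.1 TPM with vehicle (SD, n = 3 each). Next came the LIM-domain adaptor gene Lmo2 at 213 TPM, the lymphoid regulator Ikzf1 at 168 TPM, Lyl1 at 152 TPM and the sialomucin gene Cd34 at 145 TPM. Their order is not firm, since Cd34 stood at 137 ± 72.4 TPM with DEK and 153 ± 77.7 TPM with vehicle (SD, n = 3 each) and Lyl1 at 144 ± 6.39 TPM with DEK and 159.7 ± 11.9 TPM with vehicle (SD, n = 3 each). Ly6a (128 TPM) followed, then Myb (113 TPM) and Kit (94.8 TPM). The place of Ly6a is not firm either, since it stood at 294 TPM in DEK replicate 3 and at 75.1 to 112 TPM in the other libraries.

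Genes known for expression in the rarer stem cells themselves were lower. Mecom, a zinc-finger factor needed for stem cell maintenance, averaged 0.726 TPM and its relative Prdm16 0.884 TPM. Slamf1, which encodes the CD150 receptor used to sort stem cells, averaged 2.37 TPM, and Tek, the angiopoietin receptor gene, 1.84 TPM. The cyclin-dependent kinase inhibitor gene Cdkn1c, which restrains the cycle of stem cells, averaged 1.46 TPM, while its relative Cdkn1b averaged 89.6 TPM. Hlf and Procr, which also mark mouse stem cells, were between these and the abundant genes at 7.41 and 7.38 TPM, where Msi2 (7.45 TPM) and Mycn (4.41 TPM) also lay.

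**Figure D1:**
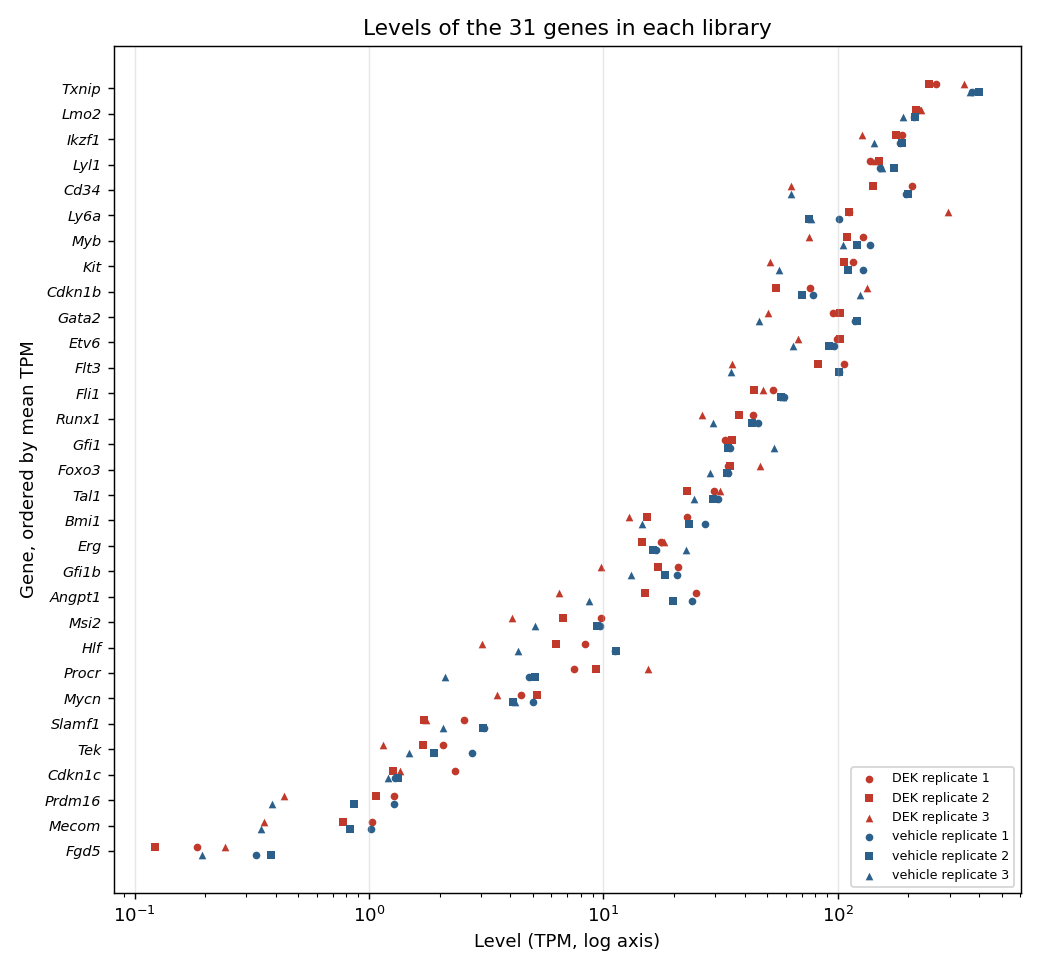
Level of each of the 31 genes in TPM (log axis) in every library, DEK in red and vehicle in blue, with a marker shape for each replicate number and genes ordered by their mean. The mean over all 6 libraries ran from 0.242 TPM for Fgd5 to 332 TPM for Txnip.

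Many of the 31 genes, like many of all genes tested, had another level in the libraries numbered 3 than in the other 4. Differences here are log2 CPM (counts scaled by TMM-corrected library size) of replicate 3 minus the mean of replicates 1 and 2 of the same group, a description with no test. Of all 13803 genes tested, 4526 were lower in replicate 3 than in both other libraries of their group, in DEK and in vehicle alike. Another 4343 were higher in that way. Of the 31 genes, 14 were lower and 7 were higher by the same rule. Among the lower ones were Cd34, with -1.10 with DEK and -1.40 with vehicle, and Flt3, the receptor gene of early multipotent and lymphoid progenitors, with -1.06 with DEK and -1.28 with vehicle. Angpt1, Prdm16, Mecom, Hlf and Kit were lower as well, with -1.23 with DEK and -1.07 with vehicle for Angpt1 and -0.77 with DEK and -0.84 with vehicle for Kit. The opposite was seen for Cdkn1b, with 1.40 with DEK and 1.00 with vehicle, for the granulocytic repressor Gfi1, with 0.34 with DEK and 0.88 with vehicle, and for Erg, with 0.52 with DEK and 0.70 with vehicle.

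Procr and Ly6a did not follow this pattern. In replicate 3 they differed from the other libraries by 1.24 with DEK and -0.96 with vehicle for Procr and by 1.74 with DEK and 0.06 with vehicle for Ly6a, so that DEK replicate 3 was high where vehicle replicate 3 was not. A smaller gap of this kind was seen for Foxo3, with 0.79 with DEK and 0.01 with vehicle, for Txnip, with 0.79 with DEK and 0.17 with vehicle, and for Tal1, with 0.61 with DEK and -0.06 with vehicle. In the same libraries the neutrophil marker list had medians of 2.85 with DEK and 3.12 with vehicle and the B-lineage list -0.97 with DEK and -1.38 with vehicle. The part of these other cell types in the levels of the 31 genes was not tested.

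**Figure D2:**
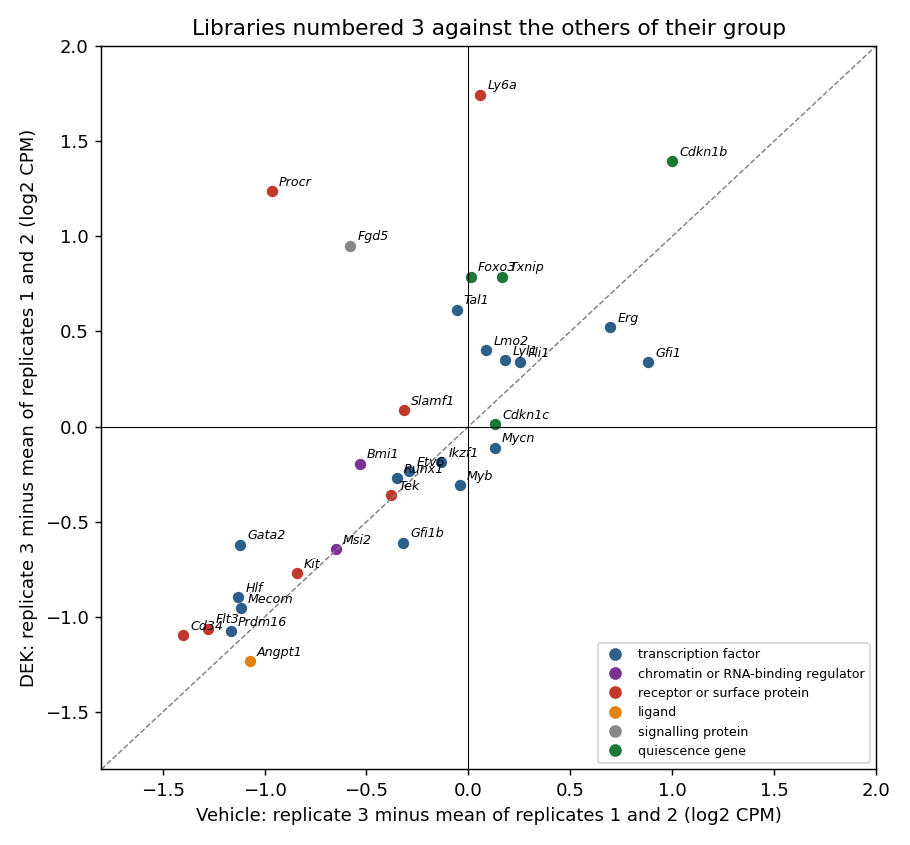
Each point is 1 of the 31 genes, placed by its log2 CPM in replicate 3 minus the mean of replicates 1 and 2, for DEK (vertical) and vehicle (horizontal), coloured by role, with the dashed line marking equal values. Cd34, Flt3, Angpt1, Prdm16, Mecom, Hlf and Kit lie low on both axes, Cdkn1b lies high on both, and Ly6a and Procr are high with DEK alone.

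Among the transcription factors, Hlf had the smallest p within pairs of all 31 genes. Hlf (chromosome 11, 90336535 to 90390917, minus strand, mm10) encodes a leucine-zipper factor that is restricted to stem cells and early progenitors and protects their quiescence. Its level was 21.4, 16.2 and 9.98 CPM in DEK replicates 1, 2 and 3, against 29.2, 29.1 and 13.3 CPM in vehicle replicates 1, 2 and 3. Each DEK library was lower than the vehicle library of its number, but the groups overlapped because vehicle replicate 3 was below DEK replicates 1 and 2. The fold change was -0.59 ± 0.39 without pairing, or 1.51-fold lower, and -0.58 ± 0.13 within pairs, with pair differences of -0.45, -0.85 and -0.42. In pairs 1 and 2 alone it was -0.65 ± 0.15 (adjusted p = 0.000587, edgeR within pairs, lower in 2 of 2 pairs).

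Mecom and Prdm16 differed in direction from pair to pair. Mecom had a fold change of -0.01 ± 0.46, with pair differences of -0.00, -0.09 and 0.12, and Prdm16 had 0.15 ± 0.47, with -0.02, 0.32 and 0.24, on levels of 1.88 ± 0.719 CPM with DEK and 1.90 ± 0.782 CPM with vehicle (SD, n = 3 each) for Mecom and 3.78 ± 1.46 CPM with DEK and 3.41 ± 1.62 CPM with vehicle (SD, n = 3 each) for Prdm16. Mycn, a growth-promoting factor of early progenitors, averaged 5.55 ± 0.556 CPM with DEK and 5.60 ± 0.628 CPM with vehicle (SD, n = 3 each), with a fold change of -0.01 ± 0.19.

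The 7 factors that bind together at stem cell enhancers had fold changes between -0.25 and 0.14 with a median of -0.12, and 5 of them lay below 0. Fli1, an ETS factor, was nearest to the threshold of the 7 within pairs, at 76.1, 63.8 and 88.1 CPM in DEK replicates 1, 2 and 3, against 86.3, 83.05 and 101 CPM in vehicle replicates 1, 2 and 3. In each pair the DEK library was lower, with log2 differences of -0.18, -0.38 and -0.20, yet the fold change of -0.25 ± 0.09 did not pass (adjusted p = 0.290, edgeR within pairs). Its close relative Erg, which maintains stem cell self-renewal, averaged 28.9 ± 6.69 CPM with DEK and 31.6 ± 9.41 CPM with vehicle (SD, n = 3 each), a fold change of -0.13 ± 0.26.

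For the basic helix-loop-helix factors, Tal1, which starts blood formation in the embryo, averaged 59.7 ± 16.5 CPM with DEK and 58.03 ± 2.17 CPM with vehicle (SD, n = 3 each). Its fold change was 0.04 ± 0.20, with pair differences of -0.08, -0.35 and 0.45. Lyl1 averaged 128 ± 19.4 CPM with DEK and 139.8 ± 13.3 CPM with vehicle (SD, n = 3 each), with a fold change of -0.12 ± 0.15 and pair differences of -0.17, -0.20 and -0.02. Lmo2, the adaptor that joins them to Gata2, averaged 208 ± 34.7 CPM with DEK and 189 ± 6.76 CPM with vehicle (SD, n = 3 each), with a fold change of 0.14 ± 0.15. Its differences of 0.03, 0.02 and 0.33 were above 0 in all 3 pairs. Exons of Lyl1 overlap those of Nfix on the opposite strand, so reads that fall in both were left out and its value is uncertain. Gata2, a zinc-finger factor that stem cells need to survive, averaged 129 ± 30.2 CPM with DEK and 146 ± 55.4 CPM with vehicle (SD, n = 3 each), with a fold change of -0.18 ± 0.34 and differences of -0.34, -0.23 and 0.21, which turned direction in pair 3. Runx1, a core-binding factor needed for the first stem cells to arise in the embryo, averaged 128 ± 15.8 CPM with DEK and 139 ± 19.3 CPM with vehicle (SD, n = 3 each), with a fold change of -0.12 ± 0.16. It was lower in 3 of 3 pairs, with differences of -0.10, -0.18 and -0.06. Within pairs none of the 7 passed (adjusted p = 0.290 to 0.993, edgeR).

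Myb, which sustains the proliferation of immature blood cells, stood at 219, 188 and 164 CPM in DEK replicates 1, 2 and 3, against 238, 209 and 216 CPM in vehicle replicates 1, 2 and 3. DEK replicates 2 and 3 were below every vehicle library, while DEK replicate 1 lay among them. Its fold change was -0.22 ± 0.14 without pairing and -0.22 ± 0.10 within pairs (adjusted p = 0.392, edgeR within pairs). Gfi1 averaged 52.4 ± 7.61 CPM with DEK and 62.7 ± 23.8 CPM with vehicle (SD, n = 3 each), a fold change of -0.26 ± 0.27, with vehicle replicate 3 the highest library at 90.1 CPM. Gfi1b, its erythroid and megakaryocytic relative, averaged 13.9 ± 3.48 CPM with DEK and 15.1 ± 2.15 CPM with vehicle (SD, n = 3 each), a fold change of -0.12 ± 0.23. Ikzf1, a zinc-finger factor of lymphoid commitment, averaged 452 ± 35.3 CPM with DEK and 468 ± 24.8 CPM with vehicle (SD, n = 3 each), a fold change of -0.05 ± 0.12. The ETS repressor Etv6, needed by adult stem cells, averaged 248 ± 22.99 CPM with DEK and 231 ± 26.9 CPM with vehicle (SD, n = 3 each), a fold change of 0.11 ± 0.14.

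Bmi1 and Msi2 act on chromatin and on RNA. Bmi1 (chromosome 2, 18677018 to 18686629, plus strand) encodes a Polycomb protein that silences cell cycle inhibitors and is required for stem cell self-renewal. It had 36.95, 25.2 and 26.7 CPM in DEK replicates 1, 2 and 3, against 44.9, 38.1 and 28.6 CPM in vehicle replicates 1, 2 and 3. The DEK library was the lower one in each pair, with differences of -0.28, -0.60 and -0.10, although the groups overlapped. The fold change was -0.33 ± 0.22 without pairing and -0.33 ± 0.12 within pairs (adjusted p = 0.281, edgeR within pairs). In pairs 1 and 2 alone it was -0.44 ± 0.14 (adjusted p = 0.0331, edgeR within pairs, lower in 2 of 2 pairs).

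Msi2, an RNA-binding protein gene that promotes self-renewal, stood at 30.1, 20.95 and 16.04 CPM in DEK replicates 1, 2 and 3, against 30.4, 29.2 and 18.96 CPM in vehicle replicates 1, 2 and 3. Its pair differences were -0.02, -0.48 and -0.24, and the groups overlapped. The fold change was -0.23 ± 0.28 without pairing and -0.24 ± 0.12 within pairs (adjusted p = 0.486, edgeR within pairs).

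**Figure D3:**
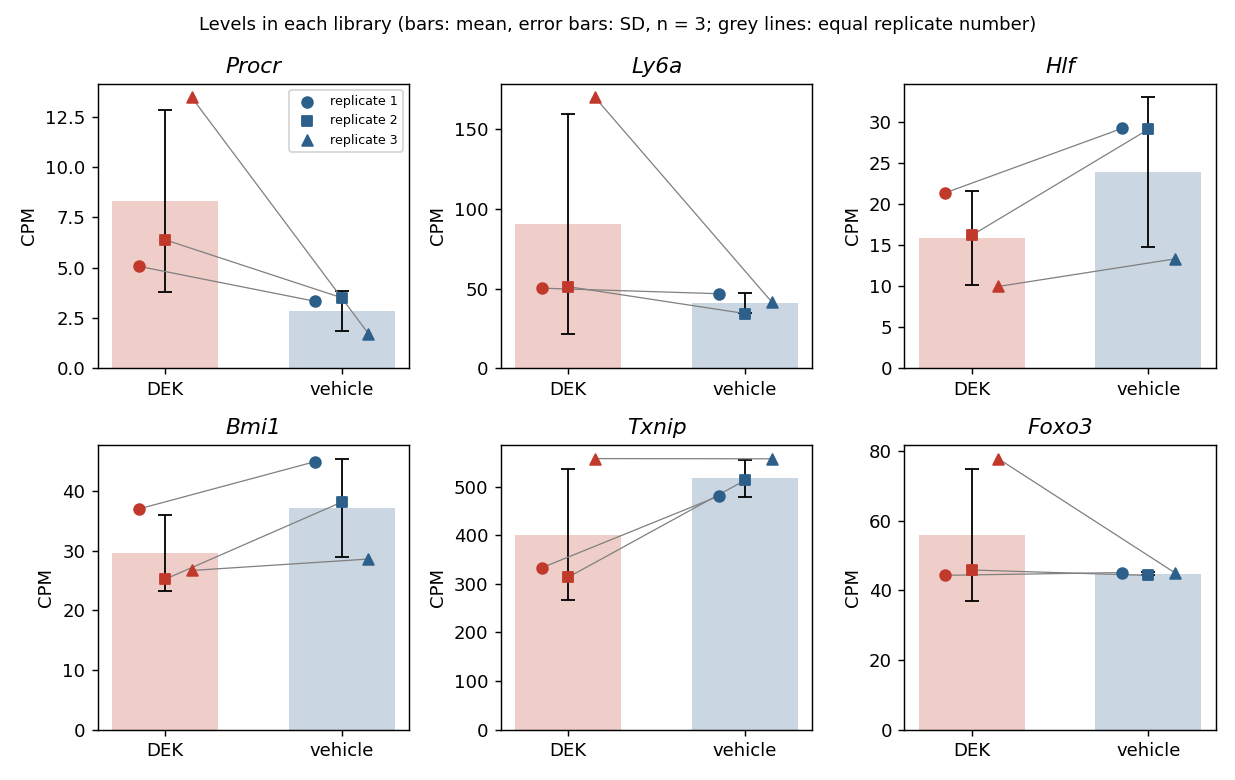
CPM of Procr, Ly6a, Hlf, Bmi1, Txnip and Foxo3 in each library, DEK left of vehicle, with bars for the mean, error bars for the SD (n = 3) and grey lines joining libraries of equal replicate number. Procr and Ly6a were higher in every DEK library than in any vehicle library, with DEK replicate 3 the highest of all, while Hlf and Bmi1 sloped the same way in all 3 pairs.

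In TMM-scaled CPM, the groups did not overlap for 2 of the 31 genes, Procr and Ly6a, both higher with DEK. That is 6.45% of the 31, close to the background of 7.19% of all genes tested (3.78% higher and 3.41% lower). The count moves with the scale, being 4 in CPM by library total, with Fli1 and Foxo3 added, and 7 in TPM, with Lmo2, Lyl1 and Txnip added as well. Of all genes tested, 2.59% were higher and 3.41% lower without overlap by library total, and 2.37% higher and 2.76% lower in TPM. Procr (chromosome 2, 155751217 to 155755478, plus strand) encodes the endothelial protein C receptor, a surface marker of mouse long-term stem cells that endothelial cells also carry. Counts were 227, 324 and 582 in DEK replicates 1, 2 and 3 and 164, 140 and 58 in vehicle replicates 1, 2 and 3. This came to 5.07, 6.39 and 13.5 CPM in DEK replicates 1, 2 and 3, against 3.33, 3.50 and 1.73 CPM in vehicle replicates 1, 2 and 3. DEK replicate 3 had the highest and vehicle replicate 3 the lowest level. The fold change was 1.54 ± 0.46 without pairing, 2.90-fold higher (unadjusted p = 0.0132, adjusted p = 0.9999, edgeR), and 1.42 ± 0.60 within pairs (adjusted p = 0.538, edgeR). Its pair differences of 0.60, 0.86 and 2.93 were unequal, and the standard error within pairs was larger than without them. In pairs 1 and 2 alone the fold change was 0.74 ± 0.23 (adjusted p = 0.0291, edgeR within pairs, higher in 2 of 2 pairs), or 1.67-fold, against the 2.90-fold of all 6 libraries.

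Markers of endothelial cells covered a wide range of levels beside it. Pecam1, which many blood cells also express, ran from 122 to 150.4 CPM in the DEK libraries and from 114 to 164 CPM in the vehicle libraries, and the receptor gene Tie1 from 13.96 to 18.8 CPM in the DEK libraries and from 14.9 to 18.9 CPM in the vehicle libraries. Kdr, the receptor for vascular endothelial growth factor, stood at 6.12, 5.70 and 11.9 CPM in DEK replicates 1, 2 and 3, against 7.79, 6.60 and 7.35 CPM in vehicle replicates 1, 2 and 3, and like Procr it was highest in DEK replicate 3. Cdh5, the cadherin of endothelial junctions, stood at 3.01, 3.08 and 2.25 CPM in DEK replicates 1, 2 and 3, against 2.35, 2.58 and 2.11 CPM in vehicle replicates 1, 2 and 3, and Emcn and Stab2 did not exceed 0.548 and 0.264 CPM in any library. Of the stromal markers, Pdgfrb reached 33.8 CPM and Col1a1 5.30 CPM, while Cxcl12, Lepr and Adipoq did not exceed 0.887, 0.208 and 0.142 CPM. The list of 12 stromal and endothelial markers had 0 genes called by edgeR with or without pairing and a summed share of 0.0154 to 0.0227% in the DEK libraries and 0.0155 to 0.0235% in the vehicle libraries (exact two-sided permutation p = 0.5), with 0 of the 12 at 0 in every library. The smallest p in that list were those of Col4a1 and Col1a1, at 1.04 and -1.07 within pairs (adjusted p = 0.0890 and 0.242, edgeR within pairs). Col4a1 stood at 2.23, 2.19 and 2.64 CPM in DEK replicates 1, 2 and 3, against 1.10, 1.13 and 1.19 CPM in vehicle replicates 1, 2 and 3. Like Procr it was higher with DEK without overlap, the 1 such gene of the 9 tested in the list (background 3.78% higher). The part of these cells in the level of Procr was not tested.

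Ly6a (chromosome 15, 74994877 to 74998031, minus strand) encodes Sca-1, the antigen that defines mouse stem and multipotent progenitor cells together with Kit and that interferons induce. Its level was 50.3, 51.2 and 170.2 CPM in DEK replicates 1, 2 and 3, against 46.8, 34.3 and 41.8 CPM in vehicle replicates 1, 2 and 3. DEK replicates 1 and 2 lay only just above the highest vehicle library, and DEK replicate 3 stood far above every other library. The fold change was 1.14 ± 0.51 without pairing, 2.21-fold higher, and 0.89 ± 0.56 within pairs, and neither passed (adjusted p = 0.9999 and 0.686, edgeR). Without DEK replicate 3 it was 0.31, or 1.24-fold. Ly6a belongs to a family of similar genes, which makes its count uncertain.

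Pair differences of Ly6a, at 0.10, 0.58 and 2.03, were set beside those of 12 interferon-stimulated genes, a list added after the values of Ly6a were seen. The medians of that list were -0.13, 0.70 and 1.87 in pairs 1, 2 and 3. Its genes ran from -0.37 to 0.20 in pair 1, from -0.07 to 1.32 in pair 2 and from 0.98 to 3.04 in pair 3. Ly6a lay within these ranges in all 3 pairs, whereas Procr, at 0.60, 0.86 and 2.93, lay above the range in pair 1 and within it in pairs 2 and 3. The list took 0.0625 to 0.611% in the DEK libraries and 0.0692 to 0.175% in the vehicle libraries, as a share of counts, with DEK replicate 3 the highest library, and 0 of its 12 genes were called with or without pairing (edgeR), the smallest p being those of Ifih1 and Mx1, at 0.53 and 0.65 within pairs. Its part in the level of Ly6a or Procr was not tested.

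**Figure D4:**
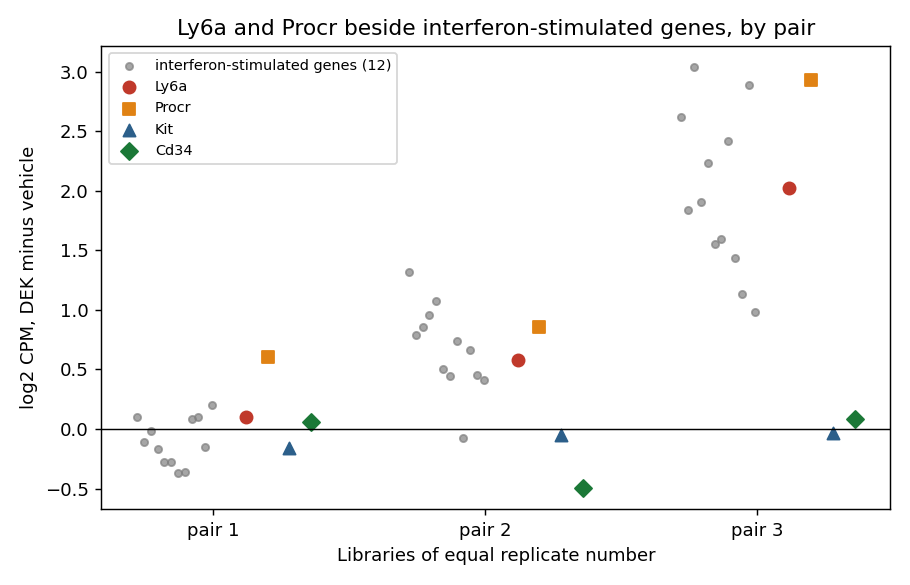
Difference in log2 CPM between DEK and vehicle in each pair of equal replicate number, for 12 interferon-stimulated genes (grey), Ly6a, Procr, Kit and Cd34. In pair 3 Ly6a (2.03) and Procr (2.93) lie within the range of the interferon-stimulated genes (0.98 to 3.04), with Kit and Cd34 near 0, and in pair 1 Procr (0.60) lies above all of them (-0.37 to 0.20).

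Of the other receptors, Kit, Slamf1 and Tek were lower with DEK in 3 of 3 pairs, Cd34 and Flt3 in 1 of 3, and none passed the test with or without pairing. Kit (chromosome 5, 75574987 to 75656721, plus strand), the receptor for stem cell factor, averaged 226 ± 63.6 CPM with DEK and 242 ± 75.8 CPM with vehicle (SD, n = 3 each), a fold change of -0.10 ± 0.31, and had pair differences of -0.16, -0.05 and -0.04. Cd34 averaged 170.0 ± 75.3 CPM with DEK and 188 ± 85.1 CPM with vehicle (SD, n = 3 each), a fold change of -0.15 ± 0.48, with pair differences of 0.06, -0.50 and 0.09. Flt3 averaged 129 ± 50.9 CPM with DEK and 136 ± 57.4 CPM with vehicle (SD, n = 3 each), a fold change of -0.08 ± 0.44, with pair differences of 0.04, -0.29 and 0.09. The libraries numbered 3 held the lowest level of each of these 3 genes in both groups. Exons of Cd34 overlap those of Gm16897 on the opposite strand, which had 8 to 34 reads per library, so its value is uncertain.

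Slamf1 stood at 3.08, 2.11 and 2.71 CPM in DEK replicates 1, 2 and 3, against 3.81, 3.78 and 3.04 CPM in vehicle replicates 1, 2 and 3. It was lower with DEK in 3 of 3 pairs, and the groups overlapped through DEK replicate 1 and vehicle replicate 3 alone, which differed by little. Its fold change was -0.43 ± 0.25 without pairing and -0.44 ± 0.22 within pairs (adjusted p = 0.479, edgeR within pairs). Tek averaged 3.71 ± 0.640 CPM with DEK and 4.61 ± 1.18 CPM with vehicle (SD, n = 3 each) and was lower in 3 of 3 pairs, with differences of -0.44, -0.16 and -0.28 and a fold change of -0.31 ± 0.27. Angpt1, the ligand of that receptor, had 48.6, 29.8 and 16.2 CPM in DEK replicates 1, 2 and 3, against 47.5, 39.1 and 20.5 CPM in vehicle replicates 1, 2 and 3. Its pair differences were 0.03, -0.39 and -0.34, with a fold change of -0.18 ± 0.47 without pairing and, within pairs, of -0.23 ± 0.12 (adjusted p = 0.493, edgeR). Fgd5, a guanine nucleotide exchange factor gene, had 21, 16 and 34 counts in DEK replicates 1, 2 and 3 and 42, 39 and 20 in vehicle replicates 1, 2 and 3. Its fold change was -0.63 ± 0.46, its pair differences of -0.80, -1.50 and 0.38 turned direction in pair 3, and it did not pass the test with or without pairing.

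**Figure D5:**
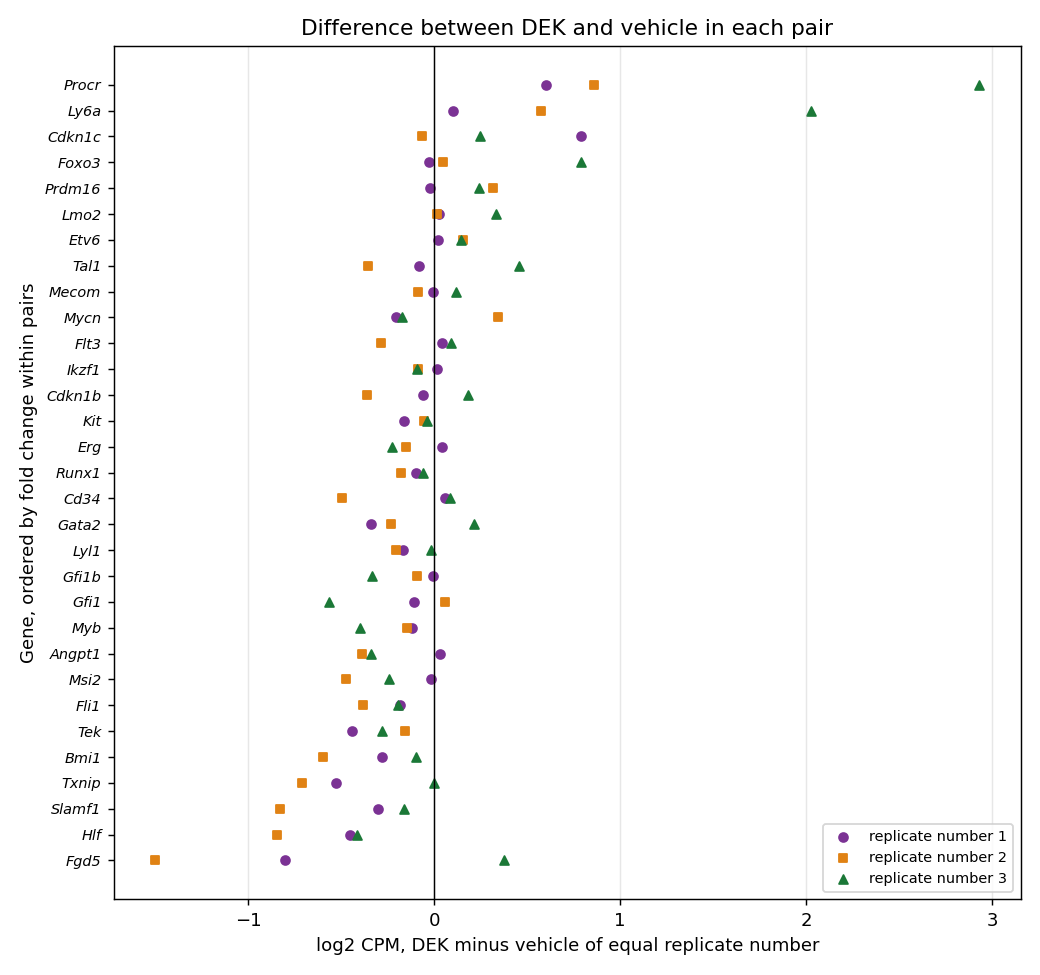
Difference in log2 CPM between DEK and vehicle for each of the 31 genes in each pair of equal replicate number, with genes ordered by the fold change within pairs. Hlf, Slamf1, Bmi1, Tek and Fli1 lie below 0 in all 3 pairs, Procr and Ly6a lie above 0 in all 3, and pair 3 holds the largest values of both.

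Among the quiescence genes, Txnip (chromosome 3, 96557957 to 96561857, plus strand) was lower with DEK in 2 of 3 pairs. Its level was 333, 314 and 558 CPM in DEK replicates 1, 2 and 3, against 480.4, 513 and 557 CPM in vehicle replicates 1, 2 and 3. DEK replicates 1 and 2 were below every vehicle library, and DEK replicate 3 was level with vehicle replicate 3. The fold change was -0.36 ± 0.24 without pairing and -0.41 ± 0.13 within pairs (adjusted p = 0.242, edgeR within pairs). In pairs 1 and 2 alone it was -0.62 ± 0.13, 1.54-fold lower (adjusted p = 9.76e-05, edgeR within pairs), and Txnip was then also the 1 gene of the 31 that passed without pairing (adjusted p = 0.0265, edgeR, background 1.22%). Exons of Txnip overlap those of Gm15441 on the opposite strand, which had 3 to 43 reads per library, so reads that fall in both were not counted and its value is uncertain.

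Foxo3, a forkhead factor that keeps stem cells out of cycle, stood at 44.3, 45.8 and 77.8 CPM in DEK replicates 1, 2 and 3, against 45.1, 44.3 and 45.01 CPM in vehicle replicates 1, 2 and 3. The 3 vehicle libraries and DEK replicates 1 and 2 were nearly level, and DEK replicate 3 alone was high. Its fold change was 0.32 ± 0.23 without pairing, and 0.00 without DEK replicate 3. Cdkn1b, which encodes the inhibitor p27, averaged 109.5 ± 66.9 CPM with DEK and 109 ± 47.4 CPM with vehicle (SD, n = 3 each), a fold change of 0.01 ± 0.49, with pair differences of -0.06, -0.36 and 0.18. Cdkn1c, which encodes p57, had counts of 91, 57 and 66 in DEK replicates 1, 2 and 3 and 57, 47 and 43 in vehicle replicates 1, 2 and 3, with a fold change of 0.37 ± 0.33.

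Related genes, from 5 lists written down with earlier results of these data known, had 1 call in all, within pairs. For the 82 genes tested, 1 call is close to the background of 1.28% of all genes called within pairs. Without pairing, 0 of the 82 genes tested in these lists were called. Of 24 further stem cell signature genes 0 were higher and 1 was lower within pairs, with a median unpaired fold change of -0.12. That gene was Neo1, the netrin receptor neogenin, with 1.67, 1.64 and 0.741 CPM in DEK replicates 1, 2 and 3, against 4.69, 4.63 and 1.10 CPM in vehicle replicates 1, 2 and 3 (-1.26 ± 0.26, adjusted p = 0.0360, edgeR within pairs). Of 18 partners and relatives of the stem cell factors 0 were called in either direction within pairs, with a median of -0.11. The smallest p there were those of Lmo4, a relative of Lmo2, at 0.40 ± 0.09 within pairs, and Runx2 at -0.30 ± 0.10 (adjusted p = 0.0682 and 0.230, edgeR within pairs). Lmo4 averaged 307 ± 8.35 CPM with DEK and 233 ± 14.4 CPM with vehicle (SD, n = 3 each), and Runx2 83.8 ± 9.43 CPM with DEK and 103 ± 10.3 CPM with vehicle (SD, n = 3 each). The groups did not overlap for either gene (background 3.78% of all genes higher and 3.41% lower).

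The 22 genes of cell cycle entry and quiescence had 0 called within pairs, with 6 higher and 0 lower at an unadjusted p under 0.05 (background 6.03% higher and 5.42% lower), and a median of 0.04. Of these, Txn1, the thioredoxin that the Txnip protein binds, and the inhibitor gene Cdkn1a had the smallest p, at 0.34 ± 0.09 and 0.43 ± 0.13 within pairs (adjusted p = 0.135 and 0.186, edgeR). Polycomb and self-renewal partners of Bmi1 had 0 of 15 called and a median of -0.08, and the smallest p, for Rnf2 and Cbx8, went with -0.25 ± 0.10 and -0.30 ± 0.14. Of 7 ligands and partners of Kit, Flt3 and Tek only 3 passed the filter on low counts and 0 were called, with a median of -0.06. Kitl, the gene of stem cell factor, and Flt3l had fold changes within pairs of -0.49 ± 0.56 and 0.07 ± 0.13, and Thpo had no read in any library. The summed share of counts of the cell cycle list was 0.206 to 0.218% in the DEK libraries and 0.180 to 0.201% in the vehicle libraries, without overlap, and its exact two-sided permutation p of 0.1 is the smallest this design can give. The same test gave p from 0.2 to 0.9 for the other 4 lists.

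Markers of committed cells, some of which share factors with stem cells, were counted in the same way, within pairs by edgeR. Over all genes tested, 0.869% were called higher and 0.413% lower in that fit. Of 10 eosinophil markers 2 passed the test, both lower, Epx and Prg3, at -0.66 and -0.55, and all 10 were lower in 3 of 3 pairs, where 17.9% of all genes were. An unadjusted p under 0.05 within pairs was reached by 9 of the 10 (background 5.42% lower). The groups did not overlap for 2, both lower (background 3.41% lower). The median unpaired fold change of the list was -0.49, at a share of 0.327 to 1.21% in the DEK libraries and 0.484 to 1.49% in the vehicle libraries. Mast cells carry Kit and Gata2. The markers of mast cells and basophils had 0 of 8 called and a median of -0.41. Their share was 0.171 to 0.265% in the DEK libraries and 0.143 to 0.357% in the vehicle libraries. Of the 12 listed, Cma1, Tpsb2, Mcpt4 and Tpsab1 failed the filter on low counts. The smallest p were those of Mcpt8 and Fcer1a, at -0.53 and -0.38 within pairs. For megakaryocyte and platelet markers 0 of 10 were called, at a median of -0.16 and shares of 0.0529 to 0.0628% in the DEK libraries and 0.0606 to 0.0719% in the vehicle libraries, with the smallest p for Ppbp and Pf4, at -0.39 and -0.26 within pairs. Erythroid markers had 0 of 10 called, a median of 0.33 and shares of 0.105 to 0.453% in the DEK libraries and 0.121 to 0.281% in the vehicle libraries, with the smallest p for Slc4a1 and Klf1, at 0.65 and 0.43 within pairs. Of the 12 erythroid genes listed, Hbb-bs and Hba-a1 had no reads in any library.

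Of 13 neutrophil markers 1 was higher, Lcn2, at 0.66, with a list median of 0.06. Of 13 monocyte and macrophage markers 2 were higher, Cx3cr1 and Ly6c2, at 0.63 and 0.50. Lower were 2, C1qb and C1qc, at -1.58 and -1.15, with a median of -0.10 and shares of 0.646 to 0.980% in the DEK libraries and 0.625 to 0.897% in the vehicle libraries. B-lineage markers had 0 of 10 called, a median of -0.08 and shares of 0.0151 to 0.0389% in the DEK libraries and 0.0129 to 0.0453% in the vehicle libraries, with the smallest p for Ms4a1, at -0.24 within pairs. T and NK cell markers had 0 of 8 called, a median of -0.03 and shares of 0.0130 to 0.0187% in the DEK libraries and 0.0173 to 0.0188% in the vehicle libraries, with the smallest p for Cd3d and Cd3g, at -0.31 and -0.37 within pairs. Dendritic cell markers had 0 of 10 called, a median of -0.09 and shares of 0.0666 to 0.119% in the DEK libraries and 0.0563 to 0.139% in the vehicle libraries, with the smallest p for Ccr9 and Cd209a, at -0.56 and -0.59 within pairs. Exact two-sided permutation tests of the summed shares gave p from 0.3 to 1 over the 8 stem and progenitor genes and these 9 cell type lists, in a design that cannot go below 0.1. Whether these cells account for any level of the 31 genes was not tested.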

How the data were processed

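Strand-specific libraries of polyadenylated RNA were sequenced from 6 samples, per the labels' protocols, and the authors deposited 1 table of read counts per gene. Its file headers name featureCounts 1.6.1 with exons summed per gene on mm10 and no option for strand or for reads in several genes, so reads in exons shared by genes on opposite strands were left out. Per the submitters' processing notes, Trim Galore, STAR, HTSeq and edgeR were used. TPM was computed from the exon lengths deposited with the counts.

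Tests ran in R 4.3.3 on the deposited counts of the 13803 genes that passed filterByExpr, out of 18049 with a read. The main test was the quasi-likelihood test of edgeR 4.0.16 with TMM scaling and robust dispersion, without a block. It was two-sided, and p was adjusted over all genes tested by the Benjamini-Hochberg method at 0.05. Alternatives used limma 3.58.1 and DESeq2 1.42.0. CPM uses TMM-scaled totals and log2 CPM a prior count of 2. Depth, 34875736 to 49128378 counts a library, sets counting error only. The functions were tested on simulated data, with 100 genes changed at each size. Without the block, 8.25% of true log2 changes of size 1 and 75.3% of size 2 were recovered, with 6 false calls. With the block, 85.6% and 99% were recovered, with 32 false calls. These were a larger part of its calls than the threshold of 0.05 aims at.

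The labels do not say what equal replicate numbers share. Deviations from group means correlated across genes by 0.55, 0.56 and 0.80 for numbers 1, 2 and 3, each over 0.1, so the numbers were taken as pairs. Vehicle 2 and DEK 1 gave 0.52, so the data hardly tell numbers 1 and 2 apart. Deviations within a group of 3 cancel out, so the shift shared by the libraries numbered 3 makes numbers 1 and 2 deviate together. Passing 0.1 therefore does not bear on how numbers 1 and 2 pair. With the block, edgeR's common coefficient of variation fell to 13.1%, against 33.1% without it.

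The 31 genes, the lists and the rules were chosen with earlier results of these data known. Levels in every library are given for genes called in either fit, for the 8 with the smallest p in each fit and, chosen after its values were seen, for Foxo3. The counts by scale and the interferon list were also added after values were seen. From each list, called genes are named, or else the 2 with the smallest p, of which 1 is not reported here.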

Additional observations from a re-analysis of the deposited data

How the results depend on the processing

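Settings changed 1 at a time were RLE scaling, scaling by library total only, totals without Rn45s, no filter on low counts, DESeq2, limma-voom, the replicate block, and libraries left out. Of 13803 genes, the unpaired edgeR test called 0 (360 at an unadjusted p under 0.05), limma-voom 0, DESeq2 58, the replicate block 177, and the test with both libraries numbered 3 left out 168. Leaving out single libraries gave 0 to 1 and leaving out single pairs under the replicate block 181 without pair 1, 0 without pair 2 and 641 without pair 3. Of the 31 genes, 0 were called except with both libraries numbered 3 left out (1, Txnip) and in pairs 1 and 2 alone under the block (leave-one-out range 0 to 4). The median of the 31 ran from -0.240 to -0.0125 with single libraries or pairs left out.

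Of 31 fold changes, 17 kept their direction in all 17 alternatives. Cdkn1b, near 0, was -0.0424 by library total only, -0.0785 by limma-voom, -0.0782 with the replicate block and -0.193 with both libraries numbered 3 left out. With both left out, Tal1 was -0.206 and Mycn 0.0652, and with the replicate block Mecom was 0.00135. With single libraries left out, the fold changes that turned direction ranged over Mecom -0.30 to 0.27, Tal1 -0.19 to 0.21, Lmo2 -0.0125 to 0.21, Erg -0.32 to 0.15, Prdm16 -0.15 to 0.54, Gfi1 -0.41 to 0.10, Gfi1b -0.31 to 0.0533, Ikzf1 -0.10 to 0.00463, Kit -0.32 to 0.12, Flt3 -0.39 to 0.20, Cd34 -0.51 to 0.14, Angpt1 -0.64 to 0.14, Cdkn1b -0.61 to 0.42 and Mycn -0.10 to 0.0405. With single pairs left out under the replicate block, those that turned were Mecom 0.00476 without pair 1, Mecom 0.0631 without pair 2, Tal1 -0.22 without pair 3, Flt3 0.0773 without pair 2, Cd34 0.0833 without pair 2, Cdkn1b -0.0883 without pair 1, Cdkn1b -0.21 without pair 3, Mycn 0.0865 without pair 1 and Mycn 0.0669 without pair 3. The cause of these changes was not tested. Of 62 group mean levels, 62 moved by less than 1 SD under scaling by library total only. The replicate block changed no call of the 31. Counting error is largest for the low genes Fgd5, Cdkn1c and Mecom.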
